A study of Arabidopsis thaliana with 11 samples.

Results

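The mitochondrial genome of Arabidopsis thaliana is represented in the table of gene expression by 146 genes, all rows whose identifier starts with ATMG, of 33602 genes in all. The rule for membership is the identifier alone and uses no measured value. Plant mitochondrial genomes encode a small set of subunits of the respiratory complexes and of the ATP synthase, proteins of cytochrome c maturation, some proteins of the mitochondrial ribosome, ribosomal and transfer RNAs, and many open reading frames. Most other subunits of these complexes are encoded in the nucleus and imported. The mitochondrial RNAs are made by phage-type polymerases, often as transcripts that span several genes, and are then spliced, edited and trimmed by proteins that the nucleus supplies.

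RNA was sequenced from whole 11-day-old seedlings of ecotype Columbia grown in continuous light on half-strength Murashige and Skoog medium with sucrose. The study changed the level of the polypyrimidine tract-binding proteins PTB1 (AT3G01150), PTB2 (AT5G53180) and PTB3 (AT1G43190), nuclear-encoded RNA-binding proteins known as regulators of splicing. The 6 genotypes were the wild type (WT), a line in which a miRNA lowers PTB1 and PTB2 (MI12), a line in which a miRNA lowers PTB3 (MI3), and lines that overexpress PTB1 (OE1), PTB2 (OE2) or PTB3 (OE3). Of 11 libraries in all, 1 came from MI3 and 2 from each remaining genotype. The labels used here name no promoter and do not say how many independent plants or lines stand behind a genotype.

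The deposited values are RPKM, read counts scaled to gene length and to sequencing depth, with 1 column per genotype. There is therefore no spread between replicates and no test for any difference below. A difference between columns may come from the genotype or from the libraries, and the table cannot tell these apart. The steps between low values put the reads behind the columns at about 93.2 M in WT and between 79.6 and 96.1 M in MI12, OE1, OE2 and OE3, but at 46.5 M in MI3. In whole seedlings, fewer mitochondria and less RNA per mitochondrion cannot be told apart.

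The targeted genes followed the labels. In WT PTB1 stood at 9.46 RPKM, and it was at 2.54 in MI12 and at 603 in OE1. In WT PTB2 stood at 9.03 RPKM, and it was at 4.01 in MI12 and at 343 in OE2. PTB3 stood at 19.5 RPKM in WT, 3.54 in MI3 and 65.4 in OE3.

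A copy of much of the mitochondrial genome lies in chromosome 2 of this ecotype, and it bears on what the members' values are. In the TAIR10.1 assembly of RefSeq, 72.7% of the mitochondrial genome of 367808 bases had a match on chromosome 2 of at least 99% identity over at least 100 bases. Of 14 uninterrupted mitochondrial coding sequences sharing a symbol with annotated members, 12 were on chromosome 2 over their whole length without a single difference. Among the 14, atp6 counts with both of its loci under the same member (ATMG00410), and its second locus matched over only 761 of 1050 bases. The annotated members take their product names from notes on nuclear genes that cite them, so the choice itself favoured a match. Other uninterrupted coding sequences, such as cox1 and nad6, were not compared. The coding sequences of the ATP synthase subunit 9 gene atp9, of the complex I subunit gene nad3 and of the ribosomal protein gene rps12 are shown because these genes carry the 2 contrasting patterns described below. Each is printed once, since the chromosome 2 copy has the same letters, and the start codon is in capitals. The whole of atp9 lies at MT:270961-271185 on the minus strand and at chr2:3251856-3252080 on the minus strand. The first 180 bases of nad3 lie at MT:288044-288223 and at chr2:3270008-3270187, both on the plus strand. The first 180 bases of rps12 lie at MT:288446-288625 and at chr2:3270410-3270589, both on the plus strand. All coordinates are those of TAIR10.1, whose mitochondrial sequence may differ from that of the TAIR10 release the submitters name.
atp9: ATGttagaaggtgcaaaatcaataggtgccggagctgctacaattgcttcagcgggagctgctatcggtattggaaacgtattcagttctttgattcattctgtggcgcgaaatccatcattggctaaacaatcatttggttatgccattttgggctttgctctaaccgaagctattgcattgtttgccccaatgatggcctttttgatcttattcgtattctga
nad3: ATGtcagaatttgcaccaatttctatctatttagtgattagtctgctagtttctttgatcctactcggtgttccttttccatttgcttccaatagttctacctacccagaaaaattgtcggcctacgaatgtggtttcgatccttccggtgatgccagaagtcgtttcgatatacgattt
rps12: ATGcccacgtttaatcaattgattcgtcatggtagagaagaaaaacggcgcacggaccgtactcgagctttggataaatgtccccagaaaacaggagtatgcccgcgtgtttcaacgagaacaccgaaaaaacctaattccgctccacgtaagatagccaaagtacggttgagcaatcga

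Reads from such stretches cannot be assigned to the mitochondrion or to the nucleus by their sequence. The atp9 member ATMG01080 was listed at 15.1 RPKM in WT and its chromosome 2 copy AT2G07671 at 15.6. The nad3 member ATMG00990 was listed at 6.67 RPKM in WT and its copy AT2G07751 at 7.20. The apocytochrome b member ATMG00220 and its copy AT2G07727 were both listed at 0.908 RPKM in WT. Over 21 pairs whose member reached 0.5 RPKM in all 6 columns, the copy was within 20% of the member in WT in 13 pairs, and in all 6 columns in 10 pairs. Other pairs were far apart, and the ratio of copy to member in WT ran from 0.158 to 2.44. The member and its copy lay on the same side of WT in all 21 pairs in OE3, in 19 pairs each in MI12, MI3 and OE2, and in 18 in OE1. No source used here states how the authors placed reads with several matches. Every statement on a member with such a copy is therefore a statement on the member and its copy together.

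**Figure D1:**
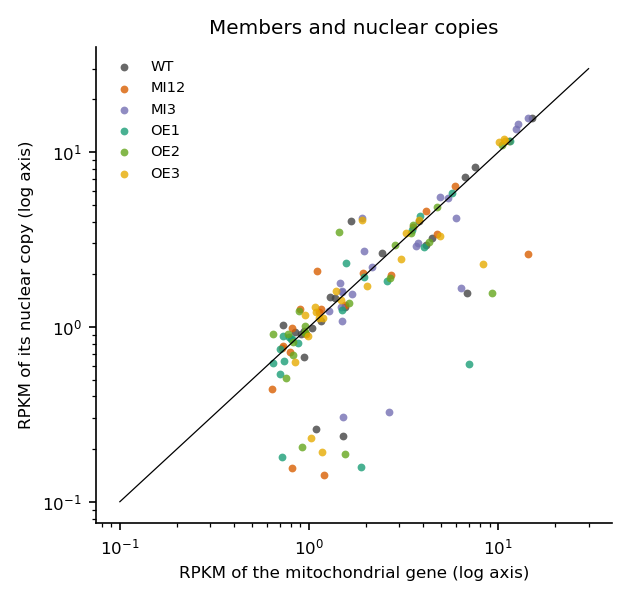
RPKM of a mitochondrial gene (horizontal, log axis) against RPKM of the nuclear gene annotated as its copy (vertical, log axis), for 21 pairs in 6 genotypes, 1 point per pair and genotype, with the line of equality. Most points lie along the line, and in WT 13 of the 21 pairs lie within 20% of each other.

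The members were low. In WT the median of all 146 members was 0.468 RPKM, against 2.27 over all rows of the table, and 44 of 146 members reached 1 RPKM. Libraries of this kit select RNA with a poly(A) tail, which plant mitochondrial RNA carries mostly when it is being degraded, so these levels are not a measure of total mitochondrial RNA. Members ATMG00050 and ATMG01070 were listed at 0 in all 6 columns, and 85 members, these included, stayed under 1 RPKM in every column. A small number of genes held most of the signal. The 5 highest members in WT made up 60.8% of the summed RPKM of all members there, between 55.9% in MI3 and 72.2% in MI12.

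MI3 was the highest column for more members than any other column, and OE1 was the lowest for more than any other. The number of members at or above 1 RPKM was 58 in MI3, 49 in OE3 and 44 in WT, but 37 in OE2, 36 in MI12 and 35 in OE1. For comparisons with WT, the 50 members of at least 1 RPKM in at least 2 columns were used, and the other 96 were not. The median of the 50 in WT was 2.28 RPKM, against 8.67 over all genes that passed the same filter. Of these 50 members, 7 reached 1 RPKM in exactly 2 columns and passed through those columns alone: 5 through MI3 and OE3 (ATMG00060, ATMG00100, ATMG00390, ATMG00500 and ATMG01210), ATMG01280 through WT and MI3, and ATMG00380 through OE2 and OE3. Among the 50, MI3 was the highest of the 6 columns for 36 members, or 72.0%, where it was for 35.6% of all compared genes. OE1 was the lowest column for 26 members, or 52.0%, where it was for 22.8% of all compared genes. Both held for 20 members. A filter on a mean of at least 1 RPKM over all 6 columns left 45 members, though a high value in any column, MI3 included, also helps a member past it. Of these MI3 was the highest column for 33, beside 35.5% of all genes under that filter, and OE1 the lowest for 24, beside 22.5%. Over the 144 members above 0 in some column, MI3 was the highest for 106 and OE1 the lowest for 69.

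On the log2(RPKM + 1) scale, which understates the change of low genes, the median difference from WT over the 50 members was 0.38 in MI3 and 0.10 in OE3. It was -0.19 in MI12, -0.24 in OE1 and -0.09 in OE2. Over all 19669 compared genes the medians were 0.05 in MI3, 0.04 in OE3, -0.007 in MI12, -0.005 in OE1 and -0.05 in OE2. As plain ratios of RPKM, the median member stood at 1.45 times WT in MI3, 1.10 in OE3, 0.896 in OE2, 0.799 in OE1 and 0.790 in MI12. Members above WT numbered 41 of 50 in MI3, 32 in OE3, 18 in OE2, 12 in MI12 and 6 in OE1. The all-gene shares above WT were 56.7% in MI3, 58.8% in OE3, 36.8% in OE2, 48.4% in MI12 and 48.9% in OE1. These comparisons share the WT column, so a low or high WT value moves all of them.

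**Figure D2:**
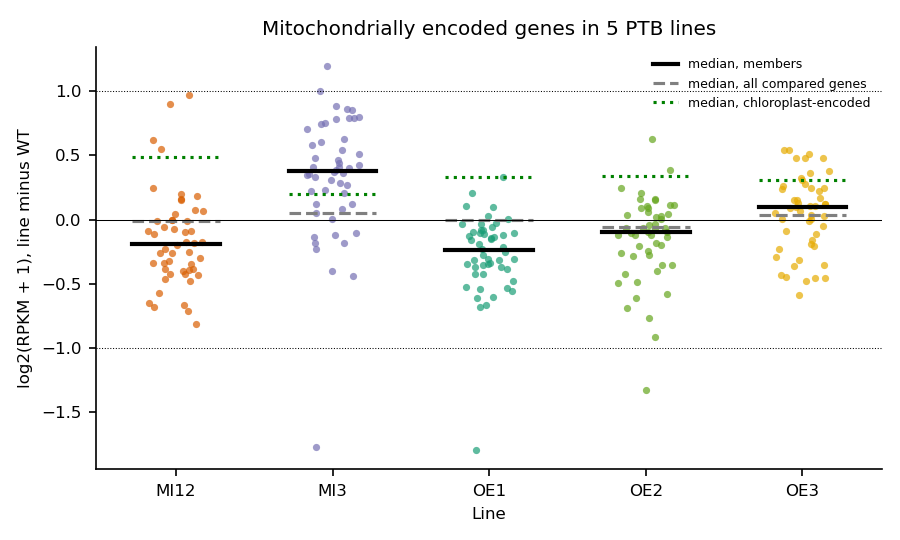
Difference from WT in log2(RPKM + 1) for each of 50 compared members (points, 1 per member) in 5 lines, with the median of members (black line), of all 19669 compared genes (grey dashes) and of 102 chloroplast-encoded genes (green dots). Dotted lines mark 2-fold. The members' median is highest in MI3, at 0.38, and lowest in OE1, at -0.24, while the chloroplast median is above 0 in every line.

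The chloroplast-encoded genes, the other organelle set of the table, were ordered differently. Of 133 such genes, 102 were compared. Their median difference from WT was 0.49 in MI12, 0.33 in OE1, 0.34 in OE2, 0.31 in OE3 and 0.20 in MI3. They were above WT in 98 of 102 cases in MI12 and 93 in OE1, the lines in which 12 and 6 of the 50 mitochondrial members were. The difference between the organelle sets was not tested, since there is 1 value per genotype.

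The number of members at least 2-fold from WT depended on the scale. The counts that follow are first those of a difference of 1 in log2(RPKM + 1), a scale on which a low gene needs a ratio well over 2. In MI3, 2 members were 2-fold higher and 1 was 2-fold lower, where 2.58% and 2.07% of all compared genes were. OE1 had 0 members 2-fold higher and 1 lower, beside 0.31% and 0.6% of all compared genes. OE2 had 0 higher and 1 lower, beside 0.259% and 0.183%. On this scale MI12 had 0 in either direction, beside 0.234% higher and 0.269% lower. OE3 also had 0 in either direction, beside 0.503% higher and 0.529% lower. As plain ratios of RPKM, 10 of the 50 members were at least 2-fold higher in MI3 and 1 was lower, beside 4.65% and 3.16% of all compared genes. In MI12 1 was higher and 2 were lower, beside 0.61% and 0.702%. In OE1 0 were higher and 4 lower, beside 0.681% and 1.87%. In OE2 0 were higher and 2 lower, beside 0.758% and 0.569%. In OE3 2 were higher and 0 lower, beside 1.42% and 1.02%. The members' levels were lower than those of all compared genes, so these shares are not matched for level. On the log2(RPKM + 1) scale, the 2 members higher in MI3 were ATMG00100, at 0.580 RPKM in WT and 2.62 in MI3, and ATMG00080, at 2.76 in WT and 6.53 in MI3. ATMG00100 passed the filter only through MI3 and OE3, where it is high. ATMG00080 was at the threshold, with 1.00 on the log2 scale, and at 0.94 under median-of-ratios scaling it was not 2-fold. The same member, ATMG00665, was 2-fold lower in MI3, OE1 and OE2. None of these 3 members has an annotated product in the sources used here. Their reads were not recovered, so these calls may rest on few reads, above all where values are low, as for ATMG00100 in WT.

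ATMG00665 did not share the order of most members. Neither its length nor its reads were recovered, so its low values may rest on very few reads. It stood at 5.61 RPKM in WT, 3.40 in OE3, 3.21 in MI12, 1.64 in OE2, 0.937 in MI3 and 0.907 in OE1. WT was the highest column, as it was for 7 of the 50 compared members, and MI3 was close to the lowest.

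Role groups here hold only members whose product is named through a nuclear gene that cites them. They are not whole families, since nad6 and rpl16, for example, are mitochondrial coding sequences without a link to an identifier here. Of the 3 members annotated to complex I, which takes electrons from NADH, nad3 was the most abundant. ATMG00990 stood at 6.67 RPKM in WT, 12.3 in MI3 and 10.1 in OE3, but at 4.15 in MI12, 3.84 in OE1 and 3.52 in OE2. The lines of PTB3, lowered or overexpressed, were both above WT and the lines of PTB1 and PTB2 were all below it. From the recovered reads, 222 in WT, 205 in MI3 and 325 in OE3, its ratio to WT was 1.85 in MI3 (95% exact binomial interval 1.52 to 2.25) and 1.52 in OE3 (1.28 to 1.81). The ratio was 0.624 in MI12 (0.501 to 0.774), 0.577 in OE1 (0.461 to 0.719) and 0.528 in OE2 (0.412 to 0.671). Such intervals hold only the error of counting. Reads of PCR-amplified libraries are not independent molecules, and variation among plants cannot be seen in 1 column. NADH dehydrogenase 1A (ATMG01275) and NADH dehydrogenase 2B (ATMG01320) were at 0.499 and 0.128 RPKM in WT and at 0.721 and 0.297 in MI3.

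The ribosomal protein gene rps12 had the same order as nad3. ATMG00980 stood at 7.54 RPKM in WT, 14.4 in MI3 and 10.9 in OE3, against 5.93 in MI12, 5.72 in OE1 and 4.72 in OE2. In TAIR10.1 rps12 starts 45 bases after the end of nad3, on the same strand, in the mitochondrial genome and in the chromosome 2 copy alike. ATMG01000, which has no annotated product in the sources used here, also stood above WT in both PTB3 lines. It was at 1.89 RPKM in WT, 3.48 in MI3 and 3.13 in OE3, and between 1.19 and 1.27 in MI12, OE1 and OE2.

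**Figure D3:**
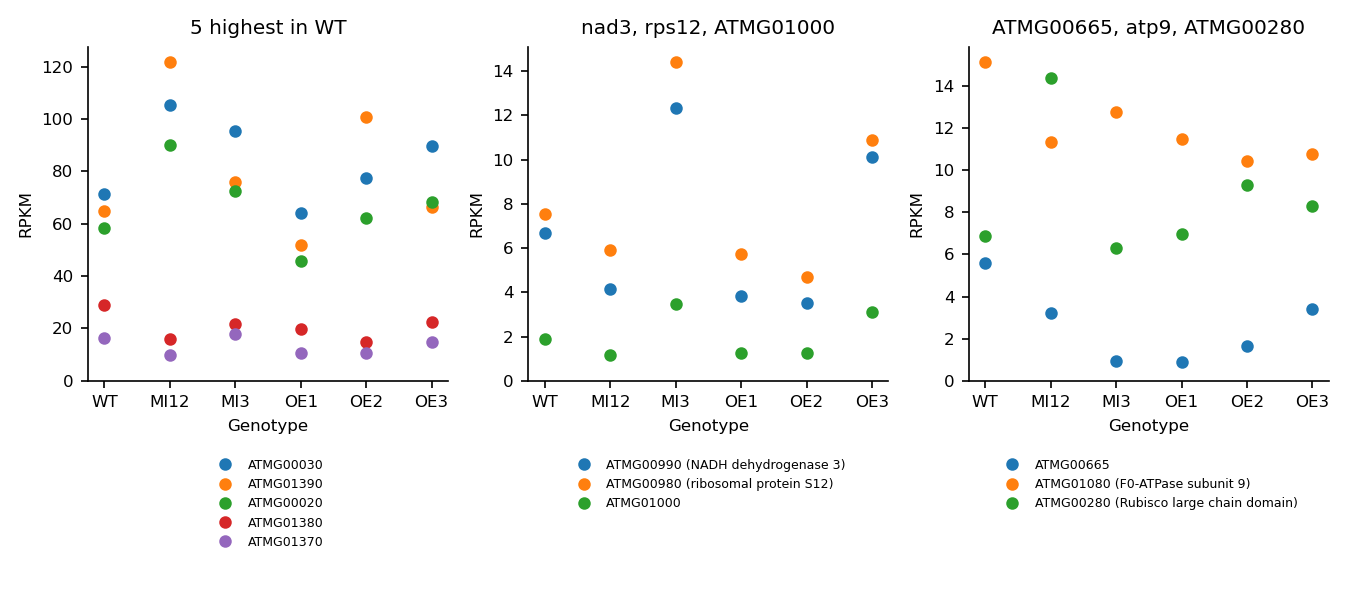
RPKM (vertical, linear axis from 0) in each of 6 genotypes, 1 point per gene and genotype without replicates, for the 5 highest members in WT (left), for nad3, rps12 and ATMG01000 (middle), and for ATMG00665, atp9 and ATMG00280 (right). In the middle panel MI3 and OE3 lie above WT and the other 3 lines below it.

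The other members annotated as mitochondrial ribosomal proteins were above WT in MI3 as well. Ribosomal protein L5 (ATMG00210) stood at 1.56 RPKM in WT and 3.66 in MI3, a ratio of 2.35 (1.73 to 3.20 from 81 and 95 reads), and between 1.49 and 2.04 in the other 4 lines. Ribosomal protein S4 (ATMG00290) stood at 0.808 RPKM in WT, 1.54 in MI3 and 0.880 in OE3, but at 0.436 in MI12, 0.478 in OE1 and 0.670 in OE2. Ribosomal protein S7 (ATMG01270) had 0.935 RPKM in WT and 1.49 in MI3, from 39 and 31 reads, with an interval of 0.961 to 2.62 for the ratio that includes no difference. All 4 annotated ribosome members were above WT in MI3 and all 4 were listed below it in MI12 and OE1. L5 in MI12 was all but level with WT, at 1.549 against 1.557 RPKM. In MI12 and OE1 the intervals of L5 and S7 include no difference. Those of S4 do not, at 0.366 to 0.785 and 0.408 to 0.851, and rps12 has no recovered reads.

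The 2 members annotated to complexes III and IV, which pass electrons on to oxygen, were low and above WT in MI3, OE3 and MI12. The complex IV gene cox1 is not among them, since it has no link to an identifier here. Apocytochrome b (ATMG00220), the core of complex III, stood at 0.908 RPKM in WT, at 1.49 in MI3, 1.48 in OE3, 1.13 in MI12, 0.946 in OE2 and 0.802 in OE1. Cytochrome c oxidase subunit 3 (ATMG00730) stood at 0.839 RPKM in WT, 1.49 in MI3, 0.947 in OE3 and 0.896 in MI12, with 0.785 in OE1 and 0.773 in OE2.

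The members annotated as ATP synthase, subunits of complex V, were split. ATP synthase subunit 1 (ATMG01190), part of the catalytic head, stood at 4.45 RPKM in WT and 6.01 in MI3, a ratio of 1.35 (1.19 to 1.53 from 632 and 426 reads), with the remaining lines from 4.05 to 4.93. ATPase subunit 8 (ATMG00480) stood at 3.82 RPKM in WT and 5.41 in MI3, and ATPase subunit 6-1 (ATMG00410) at 1.04 and 1.48. Subunit 9, which forms the membrane ring, went the other way. ATMG01080 was highest in WT, at 15.1 RPKM, and stood at 12.8 in MI3, 11.5 in OE1, 11.3 in MI12, 10.8 in OE3 and 10.4 in OE2. Its ratio to WT had an interval that includes no difference in MI3 (0.681 to 1.03), and intervals below 1 in the other 4 lines, the highest upper bound being 0.899 in OE1. ATMG01090, also annotated as ATP synthase 9, was likewise highest in WT, at 4.16 RPKM, and lay between 2.59 and 3.76 in the lines.

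The cytochrome c maturation genes attach heme to cytochromes, and all 3 members with such an annotation were above WT in MI3 and below it in OE1. ATMG00180 stood at 1.08 RPKM in WT, 1.51 in MI3 and 0.719 in OE1. ATMG00960 stood at 0.544 RPKM in WT, 1.05 in MI3 and 0.442 in OE1. ATMG00900 stood at 0.168 RPKM in WT, 0.306 in MI3 and 0.108 in OE1, from 12, 11 and 8 reads. Its ratio had intervals that include no difference in MI3 (0.734 to 4.55) and in OE1 (0.229 to 1.72). That of ATMG00960 included no difference in OE1 (0.464 to 1.42) but not in MI3 (1.13 to 3.31).

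**Figure D4:**
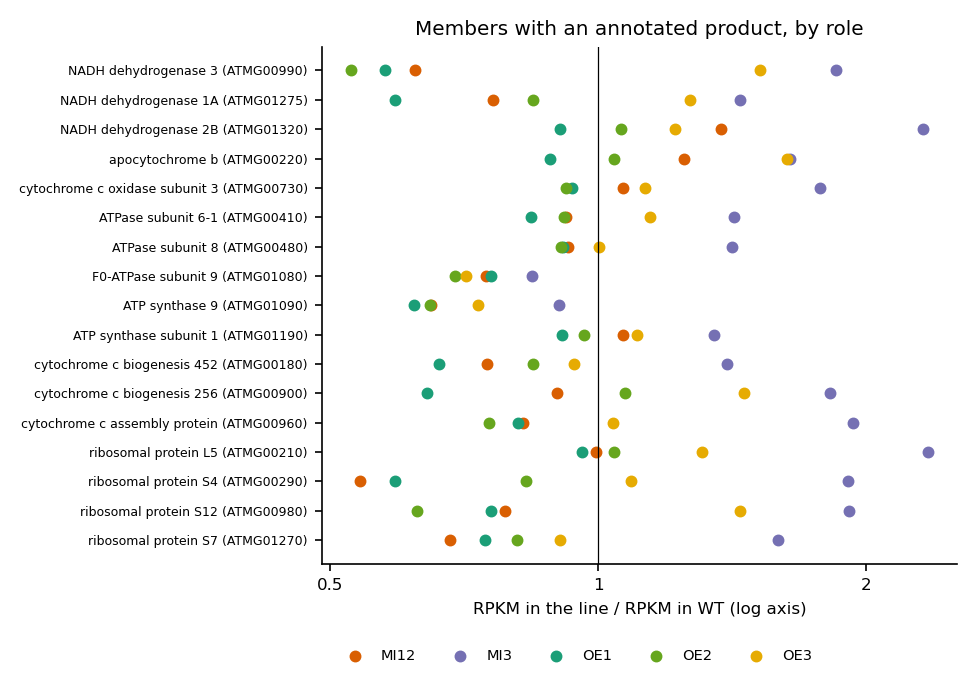
Ratio of RPKM in a line to RPKM in WT (horizontal, log axis) for 17 members with an annotated product in the 5 role groups, ordered from complex I at the top to the mitochondrial ribosome at the bottom, 1 point per line without replicates. MI3 lies to the right of 1 for all but ATMG01080 and ATMG01090, the subunit 9 genes.

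The remaining annotated members varied more. ATMG00280, whose annotated nuclear copy is described as a Rubisco large chain domain protein, a chloroplast enzyme, stood at 6.85 RPKM in WT and 14.4 in MI12, with 9.27 in OE2, 8.29 in OE3, 6.99 in OE1 and 6.32 in MI3. Relative to WT, ATMG00280 was at 2.10 in MI12, 1.35 in OE2, 1.21 in OE3, 1.02 in OE1 and 0.922 in MI3. The summed RPKM of the chloroplast-encoded genes, whose median was above WT in every line, was at 1.75 times WT in MI12, 1.37 in OE2 and 1.005 in OE1, but at 0.863 in OE3 and 0.693 in MI3. Whether reads of chloroplast RNA are counted at this member was not tested. ATMG00590, of the cytochrome b/b6 kind, stood at 2.43 RPKM in WT and 4.93 in MI3, and ATMG00370, annotated as a Ycf1 protein, at 1.66 and 1.90. ATMG01280, like an oxidase subunit II, stood at 1.15 RPKM in WT and 1.28 in MI3. ATMG00610, a membrane lipoprotein, stood at 0.662 and 0.973, ATMG01010 at 0.600 and 0.362, ATMG00560 at 0.479 and 0.553, and ATMG01110, like a mitovirus polymerase, at 0.199 and 0.256.

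The 5 highest members in WT have no annotated product in the sources used here, which name a member only where a nuclear gene cites it. A missing product is therefore no sign that a gene is unknown. Whether ribosomal RNA genes are among the 5 could not be checked here. ATMG00030 reached 71.5 RPKM in WT, with 105 in MI12, 95.5 in MI3, 89.7 in OE3, 77.6 in OE2 and 64.2 in OE1. ATMG01390 stood at 64.7 RPKM in WT, 122 in MI12, 101 in OE2, 75.8 in MI3, 66.2 in OE3 and 51.9 in OE1. ATMG00020 stood at 58.4 RPKM in WT, 90.2 in MI12, 72.6 in MI3, 68.3 in OE3, 62.3 in OE2 and 45.8 in OE1. These 3 members were highest in MI12, where most members were below WT, and lowest in OE1. ATMG01380 was highest in WT, at 29.0 RPKM, and lowest in OE2, at 14.9. ATMG01370 was highest in MI3, at 18.02 RPKM, with 16.5 in WT and 9.96 in MI12. The summed RPKM of the 5 was 1.43 times WT in MI12, while that of all other members was 0.852 times WT there. The nuclear ribosomal RNA gene AT3G41768 was likewise highest in MI12, at 2325 RPKM against 1391 in WT, and lowest in OE1, at 1017. In MI3, OE2 and OE3 it was below WT, at 1197, 1269 and 1145 RPKM, where ATMG00030, ATMG01390 and ATMG00020 were above it.

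Nuclear genes that act with the members were listed by function. Complex V subunits of the nucleus were above WT in MI3 for 7 of 7 genes, with a median difference of 0.39, and in OE3 for 7 of 7, with 0.21. Complex III subunits and cytochrome c were above WT in MI3 for 8 of 9 genes, with a median of 0.30. Complex I subunits were above it for 10 of 12 genes, with 0.18, and complex IV subunits for 5 of 6, with 0.17. None of the genes on these 4 lists was 2-fold from WT in any line. Of all compared genes up to 2.58% were 2-fold higher and up to 2.07% lower, both in MI3. The genes furthest from WT on the complex V list were AT5G08680, a beta subunit gene, at 73.2 RPKM in WT and 101 in MI3, and ATPQ (AT3G52300), the D chain, at 106 and 141. On the complex III list they were cytochrome c-2 (AT4G10040), at 14.8 RPKM in WT and 22.8 in MI3, and the cytochrome c1 gene AT3G27240, at 32.7 and 46.5. On the complex I list they were EMB1467 (AT5G37510), at 64.3 RPKM in WT and 85.9 in MI3, and GAMMA CA3 (AT5G66510), a carbonic anhydrase-like subunit, at 36.7 and 46.8. On the complex IV list they were AT3G15640, at 14.1 RPKM in WT but 9.86 in MI3, and AT2G47380, a subunit Vc gene, at 37.3 in WT and 28.3 in OE1. In OE1, where members were lowest, complex I subunits were below WT for 11 of 12 genes, but with a median of only -0.05.

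The genes for mitochondrial transcription and RNA processing did not share the order of the members. In MI3 10 of 14 were below WT, with a median of -0.11, and in OE1 8 of 14 were above it, with 0.09. MGP3 (AT1G68990), a mitochondrial RNA polymerase gene, stood at 6.77 RPKM in WT, 6.21 in MI3 and 8.95 in OE1. AT5G46920, of the intron maturase family that acts in splicing of organelle introns, stood at 10.3 RPKM in WT, 8.31 in MI3 and 7.17 in OE2. Genes of mitochondrial DNA maintenance were below WT in MI3 for 6 of 7, with a median of -0.07, and the genes furthest from WT were the organelle DNA polymerase gene POLGAMMA2 (AT1G50840), with 10.6 RPKM in WT but 13.9 in OE1, and OSB1 (AT1G47720), a single-strand DNA-binding protein, with 4.83 in WT but 3.602 in MI3.

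In the alternative respiratory pathway, 8 of 13 listed genes were compared. Of these 1 was 2-fold from WT, below it in MI3, beside 2.07% of all compared genes. NDA1 (AT1G07180), an internal alternative NAD(P)H dehydrogenase, stood at 17.3 RPKM in WT, 5.58 in MI3 and 10.2 in OE3, and between 14.9 and 18.7 in MI12, OE1 and OE2. AOX1D (AT1G32350), an alternative oxidase, stood at 4.49 RPKM in WT and 2.35 in OE3. The alternative oxidase AOX1A (AT3G22370), a usual marker of mitochondrial stress, stood at 34.4 RPKM in WT and 34.6 in MI3, with 25.8 in OE3. Among 12 genes of the response to mitochondrial dysfunction, 1 was 2-fold from WT, above it in MI3, beside 2.58% of all compared genes. The list was below WT for 11 of 12 genes in OE1, with a median of -0.15, and for 10 of 12 in OE3, with -0.26. In MI3 7 of 12 were above WT, with a median of 0.05. The gene past 2-fold, AT5G09570, a Cox19-like protein, stood at 1.63 RPKM in WT and 6.61 in MI3, with 2.91 in OE3, 2.80 in OE2, 1.89 in MI12 and 0.867 in OE1. The dicarboxylate carrier DIC2 (AT4G24570) stood at 11.6 RPKM in WT, 7.002 in MI3 and 5.69 in OE3.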

How the data were processed

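The authors deposited 1 table of RPKM values with a column per genotype, made on the TAIR10 release, as the submitters' processing notes record. No source used here names an aligner or counter, or says how multiply matching reads were treated or libraries combined. A single WT cell held no number and was set to 0. Groups came from the labels. The set of mitochondrial genes, defined by identifier, and the gene lists were taken up with earlier results of these data known. Values were compared as log2(RPKM + 1) where a gene reached 1 RPKM in 2 or more columns, and a difference of 1 was counted as 2-fold. The limma fit planned for values per library could not be run.

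Depth came from the steps between low values. A first estimate used nuclear genes and gave 93.6 M in WT and 46.7 M in MI3. The depths printed above were then refined on low values of members at their RefSeq coding lengths. Chance alone would put 20% of low nuclear values within 0.1 of a read number; 42.3% to 48.1% lay there, so depth is an estimate. Reads and intervals are given only for the 10 members whose RefSeq coding length was accepted as giving whole reads. A search for the lengths of the other members could match by chance. Some of these 10 members also served to refine the depth, so their whole reads are no separate check of it. The tolerance for whole reads grew with the read number. For ATP synthase subunit 1 (ATMG01190) the check could therefore not fail, and for atp9 (ATMG01080) it was weak. Only the first estimate of depth was tested on simulated data, and neither the refinement nor the reads of members. In the simulated data every value came from whole reads, unlike the deposited table. Product names came from RefSeq TAIR10.1 notes on nuclear genes, which cite 53 members by identifier, and 25 had an informative product. Coding sequences were matched to chromosome 2 with blastn. Named members were all those with a product, those 2-fold from WT and the 5 highest in WT, and on nuclear lists those 2-fold from WT and the 2 furthest. ATMG01000, ATMG00050, ATMG01070, AOX1A and AT3G41768 were named after their values were seen. The software was Python 3.11.15 with matplotlib 3.10.9, scipy 1.17.1, pandas 2.3.3 and numpy 2.4.6.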

Additional observations from a re-analysis of the deposited data

How the results depend on the processing

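The sign of the median difference over members was kept in all 5 lines under every alternative run. With a pseudocount of 0.1 the median moved to -0.329 in MI12 and 0.504 in MI3. Without a filter, over the 144 members above 0 in some column, it moved to -0.09 in MI12, 0.249 in MI3 and -0.112 in OE1. With a filter of 5 RPKM in 2 columns, which left 11 members, it moved to -0.073 in MI12, -0.346 in OE1 and -0.202 in OE2. Against the median of the other 4 lines it was 0.48 in MI3. As plain ratios, an alternative chosen after seeing the data, it was -0.339 in MI12 and 0.532 in MI3. A move of less than 0.1 was not counted.

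Counts of members 2-fold from WT rested on the pseudocount. With 0.1 there were 8 in MI3, beside 7.28% of all compared genes, 3 in MI12, beside 1.13%, 3 in OE1, beside 2.14%, 2 in OE2, beside 1.15%, and 1 in OE3, beside 2.05%. With 0.5 the count was 2 in MI12, beside 0.768%. As plain ratios there were 11 in MI3, 4 in OE1, 3 in MI12 and 2 each in OE2 and OE3. A filter on the mean over all columns, also chosen after seeing the data, left 45 members and moved no median by 0.1 and no count. With the filter of 5 RPKM, which left 11 members, the counts were 0 in MI3, OE1 and OE2. Against the other 4 lines they were 0 in OE1 and OE2 and 1 in OE3. The shares of all genes under these settings were not computed, so these counts cannot be set against them. The smaller pseudocount and the plain ratio weight low genes more by construction, and the higher filter leaves fewer genes.

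No paired analysis was possible because the table has 1 column per genotype, which carries no replicate number. Leaving out a replicate could not be run for the same reason. The alternative without nuclear copies, over 31 members, left out only copies that the annotation names. Depth limits MI3 most, with 46.5 M reads from 1 library, and many members rest on few reads.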
